A study of Homo sapiens with 6 samples.

Results

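The 35 genes described here encode the enzymes, carriers and transporters with which cells activate and oxidise fatty acids in mitochondria and peroxisomes. They were chosen by name, matched to the Ensembl identifiers of a deposited table of 27134 genes, and all 35 were found and tested. They comprise 17 mitochondrial genes, 11 peroxisomal genes, 3 whose products are placed in both organelles (ECI2, AMACR and CRAT) and the 4 long-chain acyl-CoA synthetases ACSL1, ACSL3, ACSL4 and ACSL5. RNA was sequenced from KM12, an established human colorectal cancer cell line at passages 10 to 15, either overexpressing CDO1 (3 libraries, called CDO1) or mock control (3 libraries). CDO1 encodes the cysteine dioxygenase that starts the breakdown of cysteine by adding oxygen to its sulfur. No drug or other treatment is given for either group, and whether the overexpressing cells are a pool or a clone is not given in the sources used here.

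A fatty acid is first coupled to coenzyme A. Long chains then enter mitochondria as carnitine esters, and each round of mitochondrial beta-oxidation runs through a dehydrogenase, a hydratase, another dehydrogenase and a thiolase, releasing acetyl-CoA and passing electrons to the respiratory chain. Peroxisomes shorten very long and branched chains with a separate set of enzymes, of which the initial oxidase passes its electrons to oxygen and makes hydrogen peroxide, and they hand the shortened products on as carnitine or free acids. Enterocytes and colonocytes oxidise fatty acids as fuel, and nuclear receptors of the PPAR and HNF4 families bind near many of these genes.

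The libraries held 17516640 to 22198173 reads assigned to genes, and every pair of libraries within a group differed by more than counting noise (chi-square per degree of freedom 2.10 to 8.29, against 15.8 to 25.2 between groups). CDO1 itself was at 2484, 2336 and 2333 normalised counts in the CDO1 libraries. It was at 68.1, 0 and 0 in the mock libraries, so mock replicate 1, with 76 reads of CDO1, stands apart on the targeted gene. Where leaving that library out ends a call on a gene described below, the value without it is given. All 9 markers of intestinal epithelium were detected, while the 3 of 5 leukocyte markers measured summed to 6.43 to 17.9 normalised counts in every library. The 2 of 5 fibroblast markers measured, mainly COL1A1, summed to 204 to 293 in mock and to 130.4 to 151 with CDO1. The 4 endothelial markers summed to 27.3 to 82.4 in mock and to 51.3 to 77.7 with CDO1. Epithelial markers summed to 191228 to 205204 with CDO1 against 142913 to 151614 in mock, most of it KRT8 (means 122713 and 86833). In limma 8 of the 9 were higher and KRT19 did not pass (27302 against 28658, adjusted p = 0.449). The part of these markers in the results below was not tested. Levels below are normalised counts, which are reads divided by a library size factor, and a fold is the ratio of mean normalised counts. Log2 fold changes are differences, CDO1 minus mock, on the scale of log2 of the normalised count plus 1, with the standard error and Benjamini-Hochberg adjusted p of limma over all 21775 genes tested. A gene is said to have risen or fallen at an adjusted p under 0.05. Separate cultures are not stated for the 3 libraries of either group, and the spread behind each p-value may therefore be technical. In cell populations, a change in RNA per cell and a change in the mix of cells cannot be told apart.

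Of the 35 genes, 17 rose with CDO1, 5 fell and 13 did not pass. Over all genes tested 24.0% passed, 11.3% higher and 12.7% lower. Among the 11283 genes whose mean lay within the range of the 35 (61.6 to 6765 normalised counts), 36.5% passed, 18.7% higher and 17.8% lower, against 62.9% of the 35. The groups did not overlap in 25 of the 35 genes, in 19 with CDO1 above and in 6 with CDO1 below, against 37.1% of all genes tested and 50.0% of genes in that range of levels. The median log2 fold change of the 35 was 0.14, against 0.01 for genes in the same range and -0.00348 for all genes tested. Most of these changes were small: only ACAA2 moved by more than 2-fold, and the other 34 log2 fold changes lay between -0.52 and 0.54. Of the 22 calls, 11 held in each of 17 alternative settings: ACAA2, ACAA1, CPT1A, CPT2, ETFA, HADHA, ECHS1, ECI1, EHHADH, HACL1 and ACSL1. Without mock replicate 1, 12 of the 35 were higher and 2 lower. With CDO1 replicate 1 or CDO1 replicate 3 left out, 11 were higher and 3 lower. Without mock replicate 3, 18 were higher and 3 lower.

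**Figure D1:**
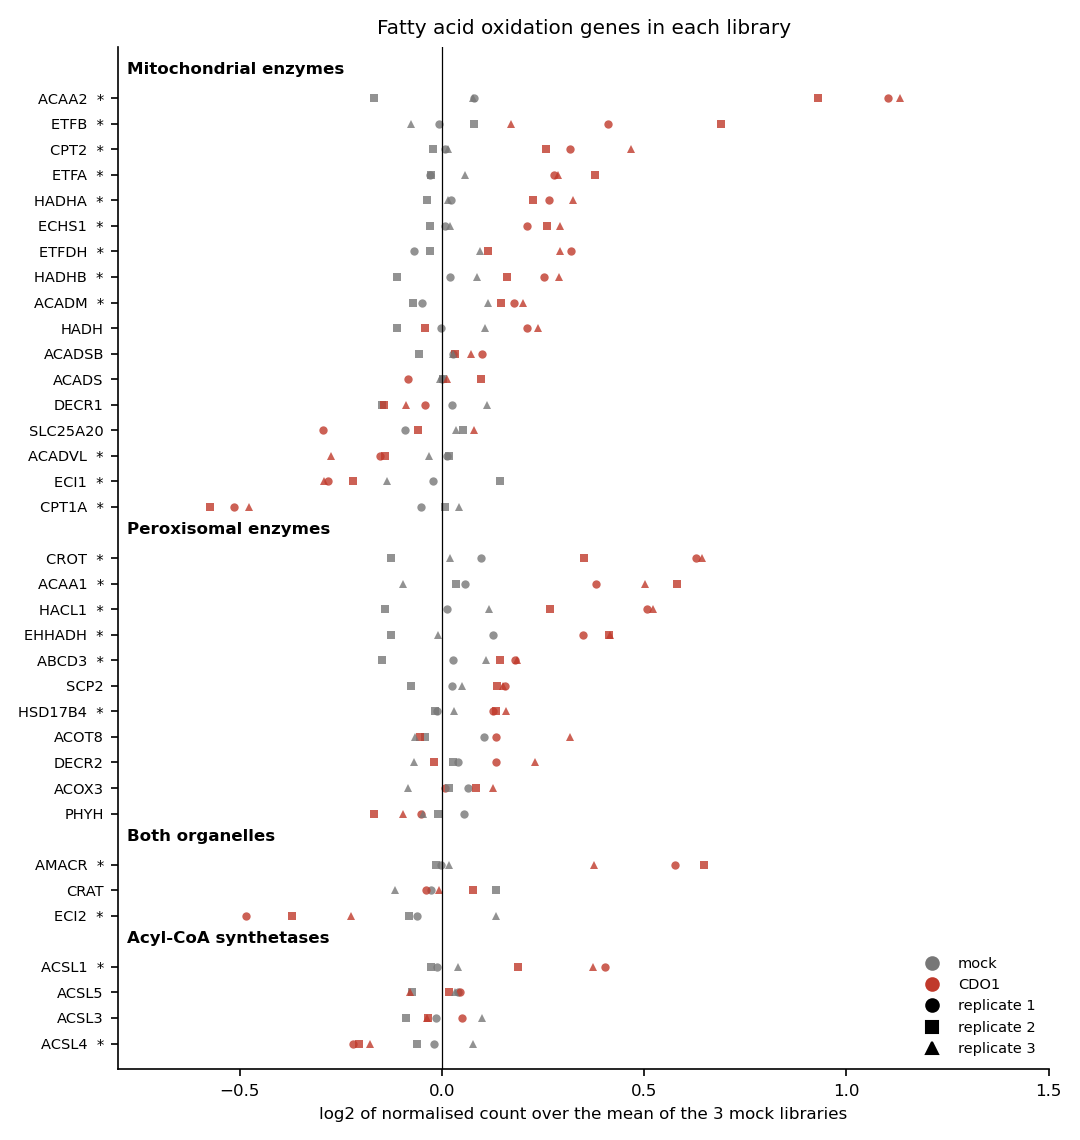
Log2 of each library's normalised count over the mean of the 3 mock libraries (x axis) for the 35 genes, grouped by compartment, with grey mock and red CDO1 libraries, shapes for replicates and an asterisk at genes past an adjusted p of 0.05. ACAA2 lies farthest to the right and CPT1A farthest to the left, and PHYH is the only peroxisomal gene with its CDO1 libraries all below its mock libraries, without passing the test.

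Promoter sequences are shown for the gene that rose most, for the pair of genes that share a promoter, and for the gene that fell most. They come from RefSeq windows on GRCh38.p14, of which 40 windows matched 29 of the 35 genes. In the 250 bases before the ACAA2 start site (chr18:49813534-49813783, minus strand, 5′ to 3′) the capitals mark a match, with 2 mismatches, to the element DR1, a direct repeat of AGGTCA with 1 base between the copies, which PPAR-RXR and HNF4A bind.
ACAA2: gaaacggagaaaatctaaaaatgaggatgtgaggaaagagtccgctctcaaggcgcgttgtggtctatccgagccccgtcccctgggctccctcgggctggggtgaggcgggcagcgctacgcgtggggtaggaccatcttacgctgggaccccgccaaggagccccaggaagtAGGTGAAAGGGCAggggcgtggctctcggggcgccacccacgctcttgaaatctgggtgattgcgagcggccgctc
HADHA and HADHB, the subunits of the trifunctional protein, lie head to head on chromosome 2, with RefSeq start sites 307 bases apart. The 194 bases that lie within 250 bases of both start sites (chr2:26244689-26244882, plus strand) follow, with capitals at the match to GGGCGG on the other strand.
HADHA-HADHB: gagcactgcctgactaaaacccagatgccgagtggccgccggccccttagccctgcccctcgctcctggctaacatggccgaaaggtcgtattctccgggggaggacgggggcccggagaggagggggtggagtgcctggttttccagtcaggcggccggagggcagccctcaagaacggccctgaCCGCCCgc
The 250 bases before the CPT1A start site (chr11:68844278-68844527, minus strand) hold none of the 3 motifs searched.
CPT1A: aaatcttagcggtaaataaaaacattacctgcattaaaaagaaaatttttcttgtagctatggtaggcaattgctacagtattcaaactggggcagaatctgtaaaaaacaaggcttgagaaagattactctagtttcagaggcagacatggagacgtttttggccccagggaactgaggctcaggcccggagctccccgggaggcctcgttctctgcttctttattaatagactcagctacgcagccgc

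The motifs were searched on both strands of 300-base windows. DR1 with up to 2 mismatches was found in 2 of the 29 matched genes, ACAA2 (position -76 from the start site) and ACSL1 (TGACTTGTGCCCT at position -114 of a window at chr4:184805504-184805803, from 1 of the 5 ACSL1 start sites). These were 5.0% of the windows of the matched genes, against 2.97% of all 35116 windows. Both genes are among the 17 of the 35 that rose. GGGCGG was found in 23 of the 29 genes, in 67.5% of their windows and in 45.0% of all windows. CCAAT was found in 9 genes, in 22.5% of their windows and in 34.6% of all. In 1 window, that of ETFA, matches to CCAAT and GGGCGG shared bases. A match is a description of letters and not of a bound site. No other pair of these genes had overlapping promoter windows.

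Among the mitochondrial genes, 9 of 17 rose, 3 fell and 5 did not pass, with a median log2 fold change of 0.18. The thiolase ACAA2 (ENSG00000167315, GRCh38 chromosome 18, 49782167 to 49813960), which cleaves acetyl-CoA from the chain in the last step, moved most. Its normalised count was 2549.6, 2146 and 2543 in the mock libraries and 5183, 4596 and 5288 in the CDO1 libraries. All 3 CDO1 libraries thus lay far above the mock libraries, and replicate 2 was the lowest in each group. The mean went from 2413 ± 231 to 5022 ± 373 (SD, n = 3), 2.08-fold, with a log2 fold change of 1.06 ± 0.07 (SE, adjusted p = 3.62e-10 in limma), higher than in 97.7% of genes tested. Each fit that left out 1 library gave a log2 fold change of at least 0.98.

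The carnitine shuttle moved in different directions. CPT1A (ENSG00000110090, chromosome 11, 68754620 to 68844410), the outer membrane carnitine palmitoyltransferase whose inhibition by malonyl-CoA sets the rate of entry, stood at 1316, 1373 and 1406 in mock and at 956, 917 and 981 with CDO1. Its libraries did not overlap, and the level fell 1.44-fold, from 1365 ± 45.4 to 951 ± 31.9 (SD, n = 3; log2 fold change -0.52 ± 0.06, SE; adjusted p = 1.14e-06 in limma). CPT2, the inner membrane enzyme that returns the chain to coenzyme A, was at 302, 296 and 303 in mock and 374, 359 and 415 with CDO1. It rose 1.27-fold (log2 fold change 0.35 ± 0.08, SE; adjusted p = 0.00396 in limma). SLC25A20, the carrier that exchanges acylcarnitine for carnitine, overlapped between groups, at 192, 212 and 209 in mock and 167, 196 and 216 with CDO1 (adjusted p = 0.623). Of the other CPT1 genes, CPT1C fell 1.32-fold to 85.0 ± 5.56 (SD, n = 3; adjusted p = 0.036) and CPT1B was at 11.2 ± 1.24 in mock and 11.3 ± 2.33 with CDO1. The call on CPT1C was lost in DESeq2 (adjusted p = 0.137), in the authors' deposited table (0.13), with the GC trend removed (0.0628) and without CDO1 replicate 1 (0.121), CDO1 replicate 2 (0.0739), mock replicate 1 (0.0995) or mock replicate 3 (0.0986).

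The acyl-CoA dehydrogenases, which start each round and differ in the chain lengths they accept, showed small differences. ACADVL, for very long chains, was the most highly counted of the 35, at 7273, 7295 and 7054 in mock and 6477, 6535 and 5957 with CDO1. It fell 1.14-fold (log2 fold change -0.19 ± 0.05, SE; adjusted p = 0.00903), and the call was lost without CDO1 replicate 3 (adjusted p = 0.094) or mock replicate 1 (0.0595). ACADM, for medium chains, rose 1.13-fold, from 1386 ± 98.9 to 1565 ± 28.5 (SD, n = 3; adjusted p = 0.0379). That call ended with any library but mock replicate 3 left out (adjusted p from 0.0583 without CDO1 replicate 2 to 0.173 without mock replicate 1). ACADS, for short chains, was at 595 ± 1.61 and 599 ± 37.5 (SD, n = 3), and ACADSB, for short branched chains, at 862 ± 28.9 and 904 ± 20.4, and neither passed. ACADS passed with each library's trend with GC content removed (log2 fold change 0.18, adjusted p = 0.0489).

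The electrons of these dehydrogenases go to the electron transfer flavoprotein, a dimer of ETFA and ETFB, and on to its membrane-bound oxidoreductase ETFDH, and all 3 of these genes rose. ETFA was at 2942, 2945 and 3122 in mock and 3639.6, 3904 and 3664 with CDO1, 1.24-fold higher (log2 fold change 0.31 ± 0.05, SE; adjusted p = 0.000122 in limma). ETFB was at 286, 303 and 273 in mock and 382, 463 and 323 with CDO1. It had the wider spread of the subunits, with CDO1 replicate 2 the highest, and its 1.36-fold rise (adjusted p = 0.00539) missed the threshold without that library (log2 fold change 0.29, adjusted p = 0.0511). ETFDH rose 1.18-fold, from 317 ± 19.0 to 375 ± 28.5 (SD, n = 3; adjusted p = 0.0461). Its adjusted p was 0.187 without CDO1 replicate 1, 0.159 without CDO1 replicate 3, 0.178 without mock replicate 1 and 0.0766 without mock replicate 2, and 0.0977 in the authors' deposited table. Exons of PPID on the other strand, at a mean of 1463 normalised counts, cover 10.9% of the exonic length of ETFDH.

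The trifunctional protein carries the hydratase and long-chain dehydrogenase in HADHA and the long-chain thiolase in HADHB. HADHA (ENSG00000084754, chromosome 2, 26190635 to 26244726) was at 4195, 4025 and 4173 in mock and 4959, 4828 and 5172 with CDO1. HADHB (ENSG00000138029, chromosome 2, 26243170 to 26290468), on the other side of the promoter printed above, was at 1656, 1513 and 1735 in mock and 1947, 1828 and 1998 with CDO1. Both rose without overlap, HADHA 1.21-fold (log2 fold change 0.27 ± 0.05, SE; adjusted p = 0.000363) and HADHB 1.18-fold (0.24 ± 0.06, SE; adjusted p = 0.00666, but 0.0542 without CDO1 replicate 3). The log2 ratio of HADHA to HADHB was 1.34 ± 0.07 in mock and 1.37 ± 0.03 with CDO1 (SD, n = 3), a difference of 0.03 ± 0.04 (SE; exact two-sided permutation p = 0.6). With 3 libraries against 3 this test cannot go below 0.1, so it says nothing on whether the ratio differs.

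Of the matrix enzymes of the later steps, the short-chain hydratase ECHS1 was at 3521, 3432 and 3551 in mock and 4052, 4194 and 4285 with CDO1, and rose 1.19-fold (log2 fold change 0.25 ± 0.05, SE; adjusted p = 0.000634 in limma). HADH, the dehydrogenase for shorter chains, overlapped between groups at 1189.7 ± 89.8 and 1311 ± 135 (SD, n = 3; adjusted p = 0.203), with replicate 2 the lowest of each group, and passed without CDO1 replicate 2 (log2 fold change 0.23, adjusted p = 0.0313). The auxiliary enzymes, which deal with double bonds of unsaturated chains, went the other way or did not pass. The isomerase ECI1 fell 1.20-fold, from 2013, 2258 and 1861 in mock to 1682, 1756 and 1671 with CDO1 (log2 fold change -0.26 ± 0.06, SE; adjusted p = 0.00508 in limma). The reductase DECR1 was at 743 ± 67.0 and 697 ± 24.3 (SD, n = 3; adjusted p = 0.437).

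**Figure D2:**
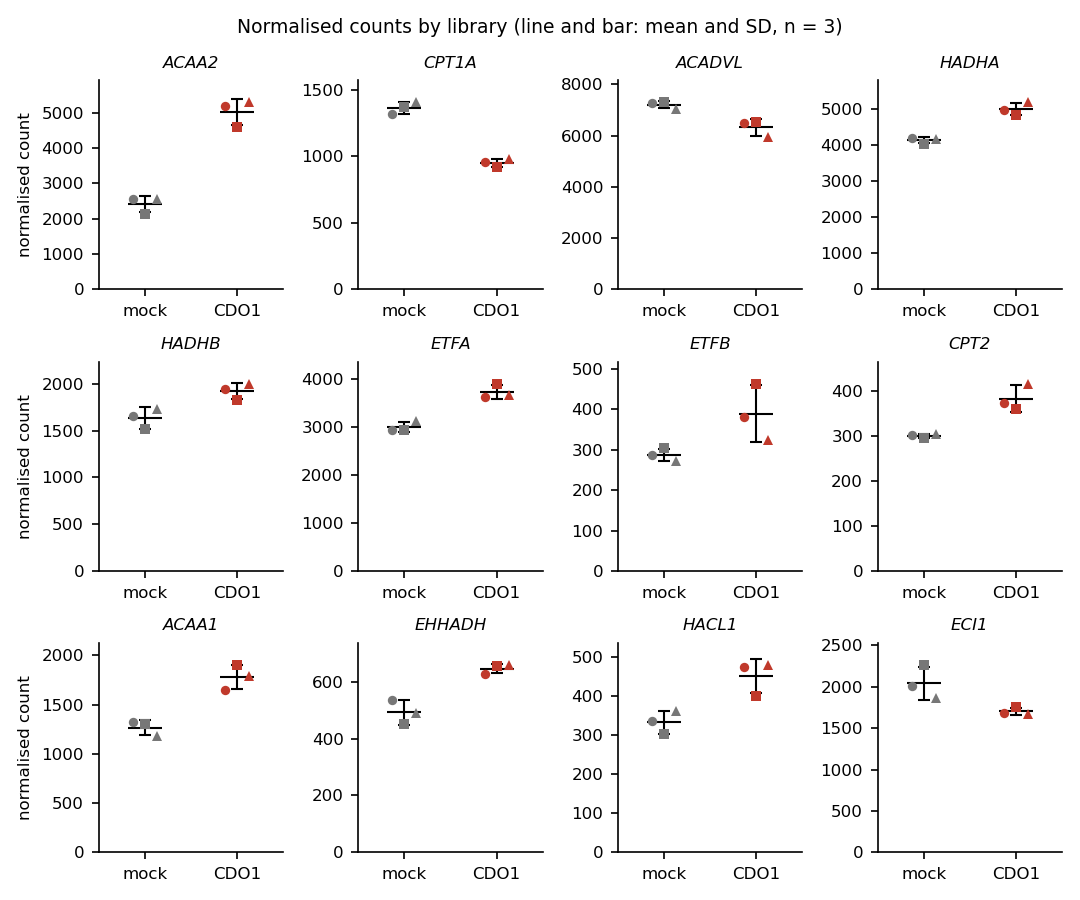
Normalised counts (y axes from 0) of 12 genes in the 3 mock (grey) and 3 CDO1 (red) libraries, with shapes for replicates and black lines and bars for mean and SD. ACAA2 goes from 2413 to 5022, CPT1A, ACADVL and ECI1 lie lower with CDO1, and the groups do not overlap in any panel.

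Among the 11 genes placed in peroxisomes alone 6 rose, none fell and 5 did not pass, with a median log2 fold change of 0.15. ECI2, placed in both organelles and described below, fell and is not among these 11. Beside the count of 0 lower genes in limma, none was lower in edgeR, DESeq2 or the authors' deposited table, nor at an unadjusted p under 0.05, and the negative log2 fold change among them, that of PHYH, is given below. Outside the list, 9 of 21 other peroxisomal enzymes and transporters and 4 of 16 peroxins rose and none of either fell, against 18.7% higher and 17.8% lower among genes in the range of levels of the 35. The difference between mitochondrial and peroxisomal genes in the share that fell (3 of 17 and 0 of 11) was not tested.

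ABCD3, which carries long-chain and branched acyl groups across the peroxisomal membrane, was at 1826, 1615 and 1931 in mock and 2029, 1979 and 2038 with CDO1. It rose 1.13-fold at an adjusted p of 0.048 in limma, and the call was lost in 11 of the 17 alternative settings, with adjusted p up to 0.22 without mock replicate 2 and 0.136 without CDO1 replicate 1, 0.0759 without CDO1 replicate 2, 0.149 without CDO1 replicate 3 and 0.0902 without mock replicate 1. The core enzymes follow. ACOX3, an oxidase for branched chains, overlapped between groups at 421 ± 21.9 and 443 ± 18.4 (SD, n = 3; adjusted p = 0.553). EHHADH, the bifunctional hydratase and dehydrogenase, was at 537, 451 and 489 in mock and 626, 655 and 657 with CDO1, 1.31-fold higher (log2 fold change 0.40 ± 0.07, SE; adjusted p = 0.000491 in limma). HSD17B4, the bifunctional enzyme that also takes branched chains and bile acid precursors, rose 1.10-fold, from 2708 ± 50.7 to 2983 ± 35.4 (SD, n = 3; adjusted p = 0.0472). Its groups did not overlap, yet the call held in only 9 of 17 settings, with adjusted p of 0.109, 0.0818 and 0.161 without CDO1 replicates 1, 2 and 3 and of 0.179 and 0.0774 without mock replicates 1 and 2.

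The peroxisomal thiolase ACAA1 (ENSG00000060971, chromosome 3, 38103129 to 38137242) was at 1319, 1298 and 1184 in mock and 1649, 1897 and 1794 with CDO1. It rose 1.40-fold without overlap, from 1267 ± 72.5 to 1779.9 ± 125 (SD, n = 3; log2 fold change 0.49 ± 0.06, SE; adjusted p = 6.92e-06 in limma). Exons of DLEC1 on the other strand, at a mean of 22.6 normalised counts, cover 19.7% of its exonic length. SCP2, whose long form is the thiolase for branched chains and whose short form is a lipid transfer protein, was at 1275 ± 58.8 and 1412 ± 10.8 (SD, n = 3), without overlap but at an adjusted p of 0.0672. Its adjusted p was 0.0439 in edgeR and 0.0357 without mock replicate 3. DECR2, the peroxisomal reductase for double bonds, was at 208 ± 8.41 and 225 ± 19.4 (SD, n = 3; adjusted p = 0.462). It shares 14.1% of its exonic length with NME4 on the same strand, at a mean of 1534 normalised counts.

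Phytanic acid, a branched fatty acid from the diet, is first shortened by alpha-oxidation, in which PHYH hydroxylates and HACL1 cleaves the chain. HACL1 was at 336, 302 and 361 in mock and 473, 401 and 478 with CDO1, and rose 1.35-fold (log2 fold change 0.43 ± 0.09, SE; adjusted p = 0.00112 in limma). PHYH was at 288, 275 and 268 in mock and 267, 246 and 259 with CDO1, a log2 fold change of -0.10 ± 0.09 (SE; adjusted p = 0.444). The 2 steps thus stood at opposite signs, with the call on HACL1 only. BTD, on the other strand at a mean of 209 normalised counts, covers 15.4% of the exonic length of HACL1.

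For products leaving the peroxisome, CROT transfers medium chains to carnitine and ACOT8 hydrolyses acyl-CoA. CROT was scarce, at 71.7, 61.4 and 67.9 in mock and 104, 85.4 and 105 with CDO1, and rose 1.46-fold (log2 fold change 0.54 ± 0.15, SE; adjusted p = 0.0115 in limma). Its adjusted p was 0.0576 without CDO1 replicate 1, 0.0607 without CDO1 replicate 3 and 0.0502 in DESeq2. ACOT8 was at 198 ± 12.7 and 218 ± 27.8 (SD, n = 3; adjusted p = 0.43). SNX21 on the other strand, at a mean of 178 normalised counts, covers 35.3% of the exonic length of ACOT8.

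The 3 genes placed in both organelles differed from each other. AMACR, the racemase that turns branched chains to the form the oxidases accept, was at 50.2, 49.7 and 50.9 in mock and 74.9, 78.8 and 65.2 with CDO1, and rose 1.45-fold (adjusted p = 0.0235 in limma). The call was lost in DESeq2 (adjusted p = 0.103), in the authors' deposited table (0.0964) and without CDO1 replicate 1 (0.0779), CDO1 replicate 2 (0.0861) or mock replicate 1 (0.0621). A readthrough gene, C1QTNF3-AMACR, at a mean of 0.329 normalised counts, covers 55.0% of the exonic length of AMACR. The isomerase ECI2 fell 1.28-fold, from 153, 151 and 175 to 114, 124 and 137 (adjusted p = 0.0354). Its adjusted p was 0.12 in DESeq2, 0.147 and 0.0772 without CDO1 replicates 1 and 2, and 0.0665 and 0.122 without mock replicates 1 and 3. CRAT, which moves acetyl groups between coenzyme A and carnitine, was abundant and overlapped between groups, at 3222, 3598 and 3028 in mock and 3192, 3462 and 3264 with CDO1 (log2 fold change 0.01 ± 0.06, SE; adjusted p = 0.91). With the GC trend removed it passed, at a log2 fold change of 0.14 (adjusted p = 0.00585).

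Of the acyl-CoA synthetases, which activate long chains at the endoplasmic reticulum, mitochondrial surface and lipid droplets, 1 rose, 1 fell and 2 did not pass. ACSL1 was at 701, 693 and 727 in mock and 935, 806 and 917 with CDO1, and rose 1.25-fold (log2 fold change 0.32 ± 0.07, SE; adjusted p = 0.00148 in limma). ACSL4, which prefers arachidonic acid, was at 1141, 1107 and 1219.5 in mock and 993, 1003 and 1022 with CDO1, and fell 1.15-fold (log2 fold change -0.20 ± 0.06, SE; adjusted p = 0.0193). Its call was lost without CDO1 replicate 1 (adjusted p = 0.0787), CDO1 replicate 3 (0.0504), mock replicate 1 (0.0622) or mock replicate 3 (0.0643). ACSL3 and ACSL5 stood at 2506 ± 165 against 2493 ± 85.7 and at 2007 ± 87.6 against 1999 ± 89.3 (SD, n = 3), with an adjusted p of 0.963 and 0.965.

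Levels of different genes were compared as normalised counts per kb of all annotated exons, which understates genes with long, rarely used exons. On this scale ECHS1 was the most abundant, at 2165 ± 38.3 in mock and 2583 ± 72.8 with CDO1 (SD, n = 3), and AMACR the least, at 10.4 ± 0.122 and 15.1 ± 1.45. In mock ACAA2 (476 ± 45.6 per kb) lay below ETFA (597 ± 20.5), ECI1 (632 ± 61.9) and CRAT (863 ± 76.1), and with CDO1 (990.2 ± 73.5) it lay above all 3 (743 ± 29.02, 527 ± 14.3 and 869 ± 36.7). CPT1A, at 208 ± 6.91 per kb in mock, did not differ from its neighbour DECR1 (212 ± 19.1) beyond their spread, and with CDO1 it lay below it, at 145 ± 4.86 against 199 ± 6.94. The summed level per kb of the 17 mitochondrial genes was 8092 ± 105 in mock and 9156 ± 91.3 with CDO1 (SD, n = 3), 1.13-fold higher, and 1.07-fold higher without ACAA2. ECHS1 made up 27.5% of that sum. The 11 peroxisomal genes summed to 1339 ± 44.6 and 1569 ± 32.7 per kb, 1.17-fold higher, and the 4 synthetases to 1112 ± 51.5 and 1114 ± 31.4.

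**Figure D3:**
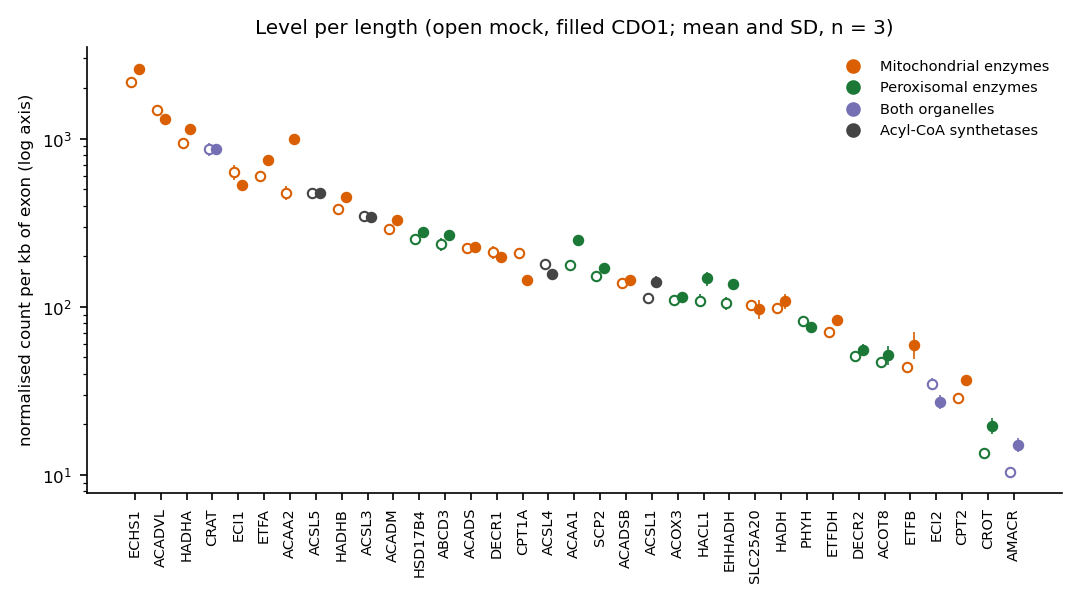
Normalised count per kb of exon on a log axis for the 35 genes, ordered by their mock mean, with open points for mock and filled points for CDO1, bars for SD (n = 3) and colours for compartment. The mitochondrial genes span the range from ECHS1 (2165 in mock) to CPT2 (28.7), and ACAA2 rises from 476 to 990.2.

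Mitochondrial enzymes were set against the enzyme of the same step in peroxisomes within each library, with ECI2, which is placed in both organelles, as the partner of ECI1. For the thiolases, the log2 ratio of ACAA2 to ACAA1 was 0.95, 0.72 and 1.10 in mock and 1.65, 1.28 and 1.56 with CDO1. The ratio was thus higher in each of these CDO1 libraries than in any mock library, and both genes rose. The difference was 0.57 ± 0.16 (SE). For the carnitine acyltransferases, CPT2 to CROT, the ratio was 2.06, 2.25 and 2.14 in mock and 1.84, 2.06 and 1.98 with CDO1, a difference of -0.19 ± 0.08 (SE). Neither of these pairs overlapped between groups, and both had an exact two-sided permutation p of 0.1, which is the smallest that 3 libraries against 3 allow, so this test cannot pass a threshold of 0.05 for any pair and says nothing on whether the ratios differ. The ratios DECR1 to DECR2, HADHA to EHHADH and ECI1 to ECI2 differed by -0.20 ± 0.12, -0.12 ± 0.07 and 0.09 ± 0.17 (SE), with overlap and exact permutation p of 0.2, 0.3 and 0.7. The ratio of the flavoprotein subunits ETFA and ETFB differed by -0.11 ± 0.14 (SE; exact permutation p = 0.4). After Benjamini-Hochberg adjustment over the 7 pairs the lowest p was 0.35.

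**Figure D4:**
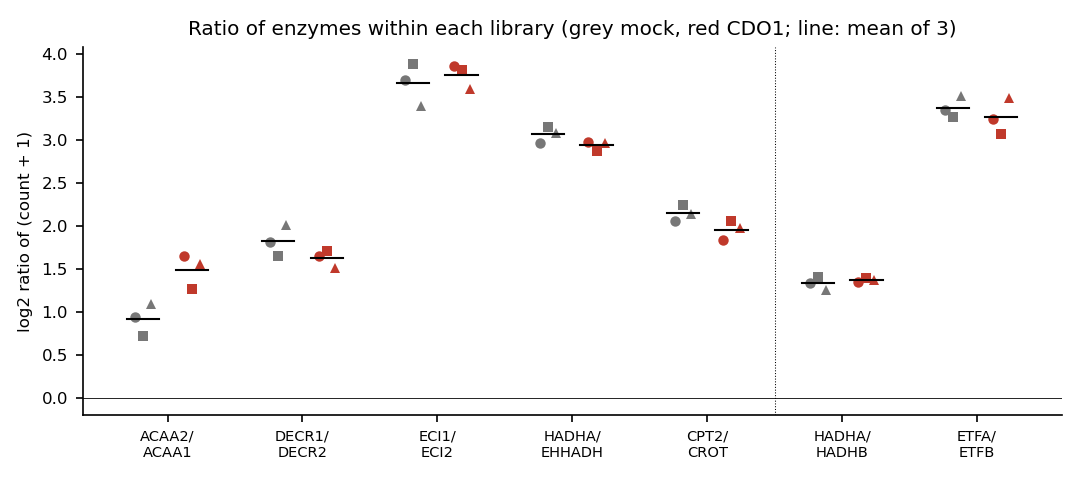
Log2 ratio of the normalised counts plus 1 of paired enzymes within each library (grey mock, red CDO1, shapes for replicates, lines at group means); pairs left of the dotted line set a mitochondrial enzyme against a peroxisomal one or, for ECI1, against ECI2 of both organelles, and those right of it the subunits of a complex. The ACAA2 to ACAA1 ratio lies at 0.72 to 1.10 in mock and at 1.28 to 1.65 with CDO1, while HADHA to HADHB overlaps between groups.

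Other genes of the pathway were read from lists that share no gene with the 35. Beside their counts stand 11.3% higher and 12.7% lower over all genes tested. For genes in the range of levels of the 35 these shares were 18.7% and 17.8%. Of the 42 calls in these lists, 27 held in each of 16 alternative settings and 15 were lost with at least 1 library left out. Of 22 other mitochondrial oxidation genes 7 rose and 3 fell, with a median log2 fold change of 0.13. ACOT2, a mitochondrial acyl-CoA thioesterase, was at 389.8, 398 and 403 in mock and 617, 592 and 646 with CDO1, 1.56-fold higher (adjusted p = 9.53e-07 in limma). PCCA, MCEE and MMUT, which turn the propionyl-CoA left by odd and branched chains into succinyl-CoA, rose 1.32-fold, 1.28-fold and 1.17-fold. PCCB, the partner of PCCA, was at 1571 ± 32.1 and 1727 ± 65.3 (SD, n = 3) and did not pass (adjusted p = 0.0813 in limma). The call on MCEE (adjusted p = 0.0272) was lost in DESeq2 (0.0874), in the authors' deposited table (0.0819) and without CDO1 replicate 1 (0.134), CDO1 replicate 2 (0.0719) or mock replicate 1 (0.13). That on MMUT (adjusted p = 0.0146) was lost without CDO1 replicate 1 (0.0664), CDO1 replicate 3 (0.0715) or mock replicate 2 (0.0523). ECHDC3, a relative of the hydratases, fell 2.90-fold, from 107 ± 3.77 to 36.9 ± 10.4 (SD, n = 3; adjusted p = 2.95e-06), and ECHDC2 fell 1.35-fold (adjusted p = 0.00945, but 0.0737 without CDO1 replicate 1) while ECHDC1 rose 1.15-fold. Of 5 genes of ketone body metabolism 2 rose, among them the thiolase ACAT1, 1.19-fold.

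Of 21 other peroxisomal genes 9 rose, with a median log2 fold change of 0.18. ACBD5, which binds very-long-chain acyl-CoA at the peroxisomal membrane, was at 1221, 1100.1 and 1253 in mock and 1578, 1605 and 1574 with CDO1, 1.33-fold higher (adjusted p = 2.68e-05 in limma). FAR1 and AGPS, of ether lipid synthesis, rose 1.29-fold and 1.25-fold. Catalase (CAT), which breaks down the hydrogen peroxide of the oxidases, was at 1524, 1473 and 1606 in mock and 1942, 1901 and 1943 with CDO1 (adjusted p = 0.000129). The acyl-CoA synthetase SLC27A2 rose 1.29-fold and the thioesterase ACOT4 1.61-fold. Of 16 peroxins, the assembly factors of the organelle, 4 rose and 12 did not pass. PEX3, which inserts membrane proteins, rose 1.38-fold (adjusted p = 0.000131) and PEX13, of the import pore, 1.30-fold (0.000155), and PEX7, a receptor of the import machinery, rose 1.28-fold (adjusted p = 0.0211). The call on PEX7 was lost in DESeq2 (0.0736), in the authors' deposited table (0.0688) and without CDO1 replicate 1 (0.0702), CDO1 replicate 3 (0.0978) or mock replicate 3 (0.0857). At an unadjusted p under 0.05, 1 gene of each of these lists was lower, the reductase PECR (171 ± 11.1 against 143 ± 4.93, adjusted p = 0.108) and the docking factor PEX14 (958 ± 63.1 against 845 ± 29.3, SD, n = 3, adjusted p = 0.0533), both named after their values were seen. The import receptor PEX5 was at 1438 ± 7.04 and 1472 ± 42.8 (SD, n = 3; adjusted p = 0.724).

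Of 15 regulators of such genes 4 rose and 3 fell beyond the threshold, so they moved in different directions. Among genes in the range of levels of the 35, 18.7% were higher and 17.8% lower. The nuclear receptor HNF4A was at 625, 585 and 562 in mock and 876, 1043 and 974 with CDO1 (log2 fold change 0.70 ± 0.07, SE; adjusted p = 3.41e-07 in limma). PPARG rose 1.19-fold (adjusted p = 0.0286), PPARD fell 1.20-fold (0.0163), and PPARA was at 505 ± 30.4 and 569 ± 7.15 (SD, n = 3; adjusted p = 0.0871). The call on PPARG was lost in DESeq2 (adjusted p = 0.0728), in the authors' deposited table (0.0689), with equal library totals (0.0556) and without CDO1 replicate 1 (0.135), CDO1 replicate 3 (0.0771) or mock replicate 2 (0.105). That on PPARD was lost without CDO1 replicate 1 (0.0526), CDO1 replicate 2 (0.0579), mock replicate 1 (0.0691) or mock replicate 2 (0.0685). The AMP-activated kinase subunit PRKAA2 fell 2.41-fold, from 120.0 ± 23.5 to 49.9 ± 4.62 (SD, n = 3), while its more abundant paralog PRKAA1 rose 1.16-fold. PPRC1, a coactivator of the PGC-1 family, fell 1.19-fold. Among 12 PPAR targets outside the 35 genes, 1 rose, 1 fell and 10 did not pass. Several of these 10 lay near the floor, so not passing says little about them. Their means in mock and with CDO1 were 1.00 and 3.36 for FGF21, 1.35 and 1.33 for VNN1, and 2.65 and 2.99 for CYP4A11. For CIDEC they were 0 and 2.25, and for CREB3L3 3.69 and 3.23. PLIN2, the coat protein of lipid droplets, was at 226, 228 and 217 in mock and 66.1, 82.1 and 66.1 with CDO1, 3.13-fold lower (adjusted p = 4.13e-09). The cytosolic thioesterase ACOT1, close in sequence to ACOT2 so that reads may be split between them, rose 1.92-fold (adjusted p = 0.000696). PDK4 (21.1 ± 3.66 and 18.9 ± 1.03) and ANGPTL4 (61.7 ± 7.64 and 50.0 ± 6.85, SD, n = 3), both scarce, overlapped between groups.

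In uptake, binding and other acyl-CoA synthetases, 4 of 17 rose and 4 fell. The fatty acid transport proteins SLC27A1 and SLC27A6 fell 1.60-fold and 2.20-fold, from 511 ± 54.1 to 319.8 ± 13.95 and from 122 ± 11.3 to 55.6 ± 3.40 (SD, n = 3). DBI, the acyl-CoA binding protein, rose 1.27-fold, from 1577 ± 87.1 to 1999 ± 69.1 (adjusted p = 0.00014 in limma), and the synthetase ACSF2 1.26-fold. The synthetase ACSF3 fell 1.24-fold, from 1029 ± 113 to 829 ± 8.46 (SD, n = 3, adjusted p = 0.00321 in limma). ACSL6, the remaining member of the ACSL family, was scarce at 12.9 ± 3.59 and rose to 32.3 ± 10.1 (SD, n = 3; adjusted p = 0.00525).

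**Figure D5:**
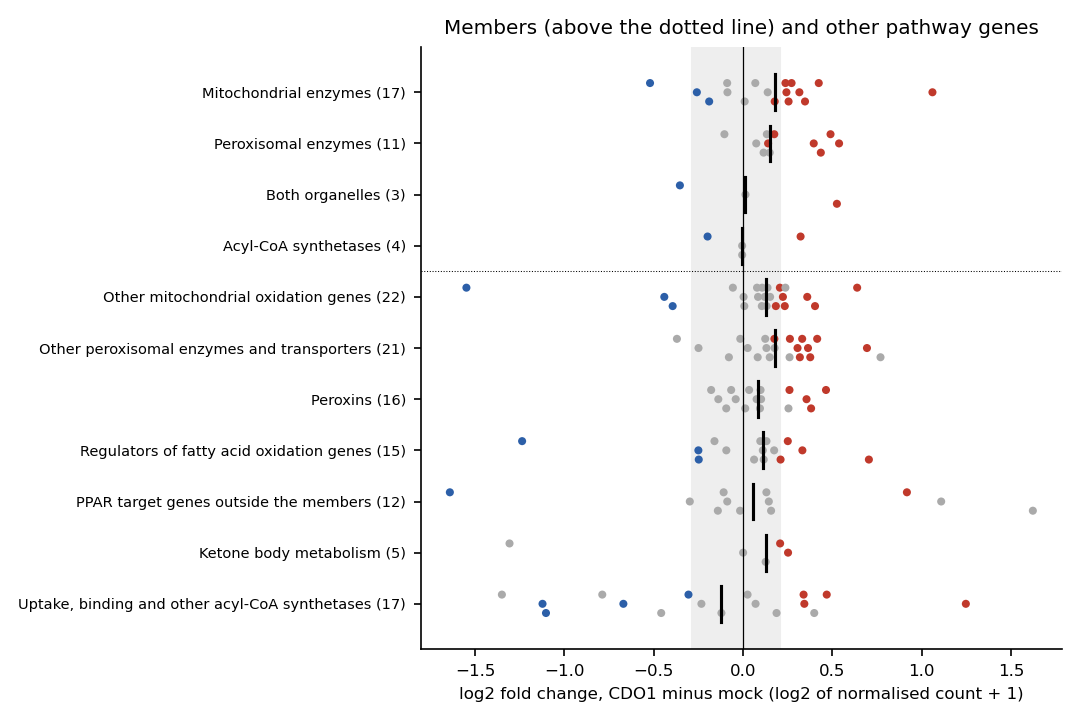
Log2 fold change (x axis, CDO1 minus mock) of each tested gene of the 4 groups described (above the dotted line) and of 7 lists of other pathway genes, with the number of genes in parentheses; red and blue points passed higher and lower, grey points did not, black bars are medians and the shaded band holds the middle 50% of all genes tested. The medians are 0.18 for mitochondrial and 0.15 for peroxisomal genes, and no point is blue in the rows of the 11 peroxisomal genes, the 21 other peroxisomal genes and the peroxins, while ECI2, in the row of genes placed in both organelles, is blue.

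The median GC content of the longest transcript was 45.0% for the 35 genes and 48.4% for the 10926 genes whose mean reached 100. Across the 35 genes Spearman's rho of the log2 fold change with GC content was -0.18, and across the 10926 genes it was -0.23; both are descriptions across genes of the same 6 libraries. With the trend removed in each library 19 of the 35 were higher and 5 lower.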

How the data were processed

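RNA of 3 CDO1 and 3 mock libraries was compared. Per the submitters' processing notes, the authors worked on GRCh38 with STAR 2.5.1b for alignment and DESeq2 1.10.1. Which counter, strand setting and annotation they used is not given in the sources used here, so reads of overlapping genes on opposite strands cannot be told apart. Deposited signal columns are gene counts divided by a size factor per library, read from the values: 100% were whole reads within 0.001 of a read. The deposited log2 fold change, p-value and adjusted p-value are the authors' comparison, per the file headers. In that comparison CDO1 itself did not pass (log2 fold change 0.09, adjusted p = 0.416), though it passed in limma (adjusted p = 2.74e-07).

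The main test was limma 3.58.1 (trend, R 4.3.3) on log2(normalised count + 1), keeping means of 1 or more and fitting group alone, with Benjamini-Hochberg adjustment over all 21775 genes. edgeR 4.0.16 and DESeq2 1.42.0 on the recovered reads were alternatives, and all were tested on simulated data. edgeR's test calls for counts as deposited, so it was not the main test. Other alternatives were the pseudocount, the filter, scaling to equal totals, a GC correction by lowess within libraries (span 0.3), the replicate number as a block, a stricter adjusted p, the authors' adjusted p, and each library left out. Names came from a reference name table (26577 identifiers) and coordinates, exons and transcripts from GENCODE release 29 (26742), which may differ from the authors' annotation. Of 115 entries in the lists of other pathway genes 108 matched a measured gene, and the rest were not analysed here. Protein sequences were not used here, and some genes of these lists are not reported here. The genes named are the 35, CDO1, and from each list up to 5 genes with the smallest p and partners, paralogs or regulators of genes described. Cell type markers, genes that overlap the 35 and PPAR targets of low level are also named. The 35 genes and the lists were chosen with earlier results of these data known. Counting limits cover counting error only.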

Additional observations from a re-analysis of the deposited data

How the results depend on the processing

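Of the 22 genes past the threshold 11 held their call in all 17 settings and none reversed. Of the 374 values of these genes under other settings 314 kept the call and 60 lost it, and of the 221 values of the 13 genes not past it, 7 passed. At an adjusted p of 0.01, 1543 genes were higher over all genes, and 11 of the 35 were higher and 3 lower, with 3 peroxisomal genes higher. With 1 library left out, between 11 and 18 of the 35 were higher and 2 to 5 lower, and 3 to 7 peroxisomal genes were higher. The median log2 fold change of the mitochondrial genes was then 0.14 to 0.23. Genes near 0 changed sign. ACADS was at -0.0178 and CRAT at -0.0135 with equal library totals. With 1 library left out SLC25A20 ran from -0.1742 to 0.0113, ACADS from -0.0356 to 0.0548, CRAT from -0.0433 to 0.081, ACSL3 from -0.0487 to 0.0447, ACSL5 from -0.042 to 0.0316, the ratio ECI1 to ECI2 from -0.0381 to 0.2076 and HADHA to HADHB from -0.0026 to 0.0703. The cause was not tested. Deviations of log2 counts from each gene's group mean were correlated between CDO1 and mock libraries over 10941 genes. The correlations of these deviations were 0.08, 0.30 and 0.09 for same-numbered libraries and -0.24 to 0.19 for different-numbered ones. The main fit did not take the numbers as pairs, and an effect shared by same-numbered libraries was not tested. With the replicate block 18 of the 35 were higher and 5 lower. The settings other than the stricter adjusted p were applied to the 42 calls of the other lists after their values were seen, and none of those reversed. Each of the 35 genes had at least 45 reads in every library.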
